A study of Saccharomyces cerevisiae with 44 samples.

Results

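The Cbp80-PrA tho2Δ strain of the budding yeast Saccharomyces cerevisiae gave 6 libraries out of the 30 in the series, 3 of total RNA and 3 of RNA bound by both Cbp80 and Yra1, and these are described here. They were chosen by strain alone, with no measured value used, and each pulldown was paired by replicate number with the total RNA of the lysate it came from. Cells carried SNAPf-tagged YRA1, a protein A (PrA) tag on CBP80 (gene STO1) that could be cut off with a protease, and a deletion of THO2, in the BY4741/2 background, and were grown in YPD at 30 °C. Their frozen, ground lysate, not the living cells, was treated with 0.2% formaldehyde. Complexes then went through 2 purification steps, capture and protease release of Cbp80-PrA followed by beads carrying an antibody against Yra1. Total RNA came from 7.5% of the lysate. The no tag tho2Δ strain, which carried the same tho2 deletion and SNAPf-YRA1 without PrA, gave the background of the purification in 6 further libraries. The Cbp80-PrA wild type, with the same tags and THO2 in place, gave the 6 libraries with which the deletion was compared. The deletion and the tags are in every cell of the culture, and a pulldown from lysate holds complexes of all cells and compartments. In bulk RNA, more cells with a transcript and more transcript per cell cannot be told apart.

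Cbp80 forms, with a smaller partner, the cap-binding complex of the nucleus, which binds the cap of RNA polymerase II transcripts as they are made. Yra1 is an adaptor that joins messenger ribonucleoprotein particles (mRNPs) and helps to hand mRNA to its export receptor. Tho2 is a subunit of the THO complex, which acts during transcription with the RNA helicase Sub2 to load Yra1 on nascent mRNA. Cytoplasmic mRNA has mostly exchanged the nuclear cap-binding complex for the translation factor eIF4E, so the pulldown addresses mRNPs that still hold nuclear factors, whereas total RNA holds transcripts of every age.

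Counts are deduplicated 3′-end tags per gene. They numbered 117192 to 265792 in the 3 pulldowns, 460232 to 581824 in the paired total RNA, and 23769 to 38378 in the no tag tho2Δ pulldowns, so values near 0 in the latter are loosely bounded. Levels are given as CPM, counts of a gene per 1000000 counts after TMM scaling, which are shares of a library and not amounts of RNA recovered. The 3 pulldowns and total RNA replicate 1 were read on an AVITI sequencer alone, while total RNA replicates 2 and 3 combine AVITI and Illumina NextSeq 500 runs, so sequencer and fraction cannot be told apart in those pairs. In the AVITI-only pair of replicate 1 the ratio had the sign of the fitted one for 180 of 182 named genes. That pair is part of the fit, and most of these genes were named for large ratios, so their sign could hardly differ. For 68 of them the ratio differed from the fitted one by the SD of the 3 pairs or more. With no test, 1707 genes were higher and 1597 lower in that pair by more than 1 on the log2 scale. Of the comparison strains, all 3 wild type total RNA columns, wild type pulldown replicate 2 and no tag total RNA replicates 1 and 2 combine both sequencers. THO2 had 0 counts in all 3 pulldowns and 1, 0 and 0 counts in total RNA, against 71 to 83 in Cbp80-PrA wild type total RNA. Across genes, log2 levels of the pulldown replicates correlated at r = 0.853 to 0.922, against 0.978 to 0.980 in total RNA, and pulldown replicate 3 stood apart: ribosomal protein genes took 5.49% of its tested counts against 9.62% and 10.6% in replicates 1 and 2. Genes of chromosome XVI with at least 20 CPM in total RNA of each strain had a median total RNA level 0.89 higher on the log2 scale than in the no tag tho2Δ strain and 0.90 higher than in the Cbp80-PrA wild type. Those of chromosome II stood at -0.27 and -0.31 in the same comparisons, below the remaining chromosomes. The median pulldown ratio of the chromosome XVI genes, -0.36, lay within the range of the other chromosomes.

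The pulldown was set against its own total RNA to ask which transcripts were over- or under-represented among Cbp80/Yra1 particles when THO was defective. Of 5399 tested genes, 1735 (32.1%) were higher in the pulldown and 1610 (29.8%) lower, at an adjusted p under 0.05 by edgeR's quasi-likelihood test and a log2 ratio beyond 1 in either direction. The median ratio was -0.02. All 3 pulldowns lay above all 3 total RNA libraries for 1976 genes (36.6%) and below them for 2032 (37.6%). With no tag, 559 genes (10.4%) were higher and 1587 (29.4%) lower in the other tho2Δ strain, with a median of -0.81. A low ratio was thus common without any tagged Cbp80. In the Cbp80-PrA wild type 1807 genes (33.5%) were higher and 1613 (29.9%) lower. Of the tested genes 281 passed the filter on low counts through the pulldown only and 1618 through total RNA only. Counts and medians of a gene list are descriptions of its members, which are not replicates.

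Small nucleolar RNAs (snoRNAs), which guide the modification of ribosomal RNA, were mostly higher in the pulldown. Box C/D snoRNAs guide methylation and are recognised by short motifs near their ends, the C box at the 5′ end and the D box at the 3′ end. Box H/ACA snoRNAs guide pseudouridylation and end a few bases after an ACA. In the R64 annotation used here, TGATGA stood in the first 15 bases of 36 of 47 box C/D genes (76.6%) and of 0.751% of nuclear coding sequences, CTGA stood in the last 15 bases of 45 of 47 (95.7%) and of 7.86% of coding sequences, and ACA stood in the last 6 bases of 16 of 29 box H/ACA genes (55.2%) and of 1.15% of coding sequences, searched on the gene's own strand. Members that the results turn on, with and without these motifs, are shown from RefSeq R64, 5′ to 3′ on the gene's strand, box C/D genes whole and box H/ACA genes by their last 60 bases, with these motifs in capitals. SNR64 lies at chrXI:38811-38911 (+), SNR50 at chrXV:259489-259578 (+), SNR34 ends at chrXII:899323-899382 (+), SNR32 at chrVIII:381668-381727 (+), SNR5 at chrXV:842547-842606 (+), SNR84 at chrIV:1492477-1492536 (-) and SNR86 at chrXIII:762110-762169 (-). The annotated ends of SNR5 and SNR86 hold no ACA in their last 6 bases.
SNR64: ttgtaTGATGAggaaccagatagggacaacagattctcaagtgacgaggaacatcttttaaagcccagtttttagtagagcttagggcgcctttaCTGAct
SNR50: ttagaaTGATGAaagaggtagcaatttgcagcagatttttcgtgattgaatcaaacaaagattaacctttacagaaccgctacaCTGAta
SNR34: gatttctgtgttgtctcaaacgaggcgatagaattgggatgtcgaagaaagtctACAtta
SNR32: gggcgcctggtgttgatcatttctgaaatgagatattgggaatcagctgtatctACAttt
SNR5: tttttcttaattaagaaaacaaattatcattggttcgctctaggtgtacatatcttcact
SNR84: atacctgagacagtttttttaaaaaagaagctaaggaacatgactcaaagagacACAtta
SNR86: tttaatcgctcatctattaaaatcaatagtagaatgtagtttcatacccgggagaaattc

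SNR64, a box C/D snoRNA, stood at 2489, 2239 and 2474 CPM in the 3 pulldowns and at 29.5, 40.5 and 43.0 CPM in total RNA. The groups were far apart, and the ratio was 63.7-fold, a log2 value of 5.99 ± 0.26 (SE from the fit of 18 libraries, n = 3 pairs, edgeR adjusted p = 4.39e-118). SNR50 stood at 391, 292 and 125 CPM against 12.1, 2.13 and 3.44, with pulldown replicate 3 lowest but still above all total RNA. SNR45, with no TGATGA in its first 15 bases, stood at 5.42 ± 0.26. In all, 41 of 44 tested box C/D genes were higher and 0 lower (43 with no overlap between the groups), with ratios from 0.10 to 5.99 on the log2 scale and a median of 3.23. The median was -0.31 with no tag and 3.66 in the Cbp80-PrA wild type. Of these genes 6 passed the filter through the pulldown only. Box C/D genes took 3.22% to 3.25% of tested counts in the pulldowns, 0.351% to 0.392% in total RNA and 0.327% to 0.376% in the no tag pulldowns.

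Box H/ACA snoRNAs were higher in 23 of 28 cases and lower in 2. SNR34 stood at 2754, 2931 and 2519 CPM against 43.4, 49.0 and 41.3 in total RNA, a 61.0-fold difference, and SNR32 had the largest log2 ratio of the list, 6.38 ± 0.27. SNR5, which lacks the marked ACA, stood at 6.10 ± 0.27. Against these, SNR84 stood at 118, 154 and 143 CPM in the pulldowns and at 3596, 4709.9 and 4294 in total RNA, 30.3-fold lower (log2 -4.92 ± 0.24, adjusted p = 1.09e-89), and SNR86 was lower by 2.95 ± 0.21 on the log2 scale. Both were lower with no tag as well, at -4.94 and -3.63. They are the longest and the third longest genes of the list, at 1004 nt for SNR86 and 550 nt for SNR84, while the second longest, SNR30 at 606 nt, was higher by 4.11. SNR49, SNR36 and SNR46 lay between -0.72 and -0.32 and were not called, though all 3 pulldowns lay below all total RNA. All 3 were higher than the no tag background, SNR46 by 4.28 ± 0.48, the others with at most 1 count in the no tag pulldowns. The list's median was 4.51, against 0.10 with no tag and 4.47 in the Cbp80-PrA wild type. Counts of 3′-end tags do not tell precursors from mature snoRNAs. How far mature snoRNAs were captured was not tested, so these ratios are of tags and not of all snoRNA.

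The spliceosomal RNAs were divided too. SNR7-L, the long form of the U5 RNA, stood at 429, 531 and 795 CPM against 22.5, 27.7 and 44.7 in total RNA (log2 4.20 ± 0.25), and SNR14, the U4 RNA, at 4.53 ± 0.44. SNR6, the U6 RNA, which RNA polymerase III makes and which carries another cap, stood at 1.33 ± 0.20, and SNR19, the U1 RNA, at 1.16 ± 0.20, a call that ended without replicate 2 (0.92) and in the fit of all 30 libraries (0.98). LSR1, the U2 RNA, was lower, at 1665, 1862 and 3144 CPM in the pulldowns against 10092, 15538 and 12628 in total RNA, 5.87-fold. No pulldown reached its lowest total RNA value. Of other structured RNAs, NME1, the RNA of RNase MRP, was 19.9-fold higher, with 2401, 2646 and 2287 CPM against 130.1, 124 and 113. RPR1 of RNase P (-0.01 ± 0.20), SCR1 of the signal recognition particle (0.38 ± 0.19) and TLC1, the telomerase RNA (-0.73 ± 0.21), were not called. With no tag RPR1 and SCR1 stood at -1.09 and -1.24, and both differed from that background by the test of the difference, by 1.09 and 1.62.

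**Figure D1:**
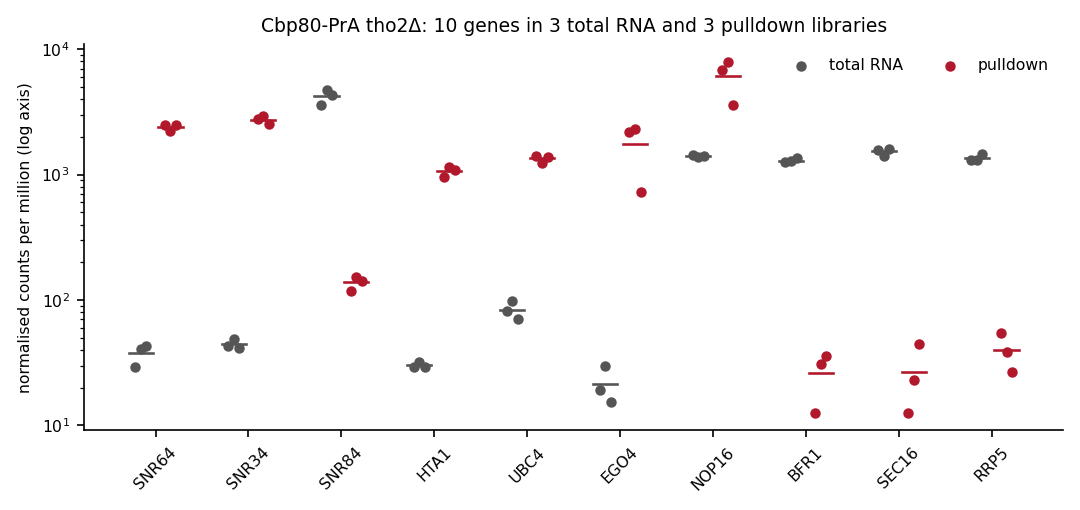
Level in CPM (log axis) of 10 genes in the 3 total RNA (grey) and 3 pulldown (red) libraries of Cbp80-PrA tho2Δ. Points are libraries in replicate order and lines are means. SNR64 and SNR34 sit at 2239 CPM or more in every pulldown and at 49.0 or less in every total RNA library, SNR84, BFR1, SEC16 and RRP5 sit the other way round, and the third replicate is the lowest pulldown for EGO4 and NOP16.

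Among called coding genes of the nucleus that averaged 20 CPM or more, the 10 highest ratios were those of genes with coding sequences of 195 to 696 nt and at most 29.8 CPM in any total RNA library. EGO4, which encodes a small protein of the EGO complex, stood at 2208, 2331 and 732 CPM in the pulldowns and at 19.1, 29.8 and 15.5 in total RNA. Replicate 3 was lowest, yet far above total RNA, and the ratio was 78.2-fold (log2 6.29 ± 0.27, adjusted p = 1.38e-116). MHF1, a histone-fold protein of DNA repair, was 55.4-fold higher, at 1001, 769 and 1125 CPM against 15.6, 17.0 and 18.9, and ATG41, an autophagy gene, 54.2-fold. YBR182C-A, ECM12, RMD6 and YOR032W-A had log2 ratios of 5.76 to 6.31. YBR144C, YBL071C and YOR008C-A had 1, 3 and 2 counts in total RNA and 39, 94 and 55 in the pulldowns, so their ratios are loosely bounded, that of YBL071C at 106.3 (95% exact counting interval 35.3 to 525). Reads of YBL071C and ECM12 are uncertain as to their source, since both overlap a gene on the opposite strand.

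At the other end stood messages that differed widely in total RNA level. As a mean of 20 CPM over the 6 libraries was required, a gene with a low ratio had to be present in total RNA. SEC16, a scaffold of COPII coat assembly at the endoplasmic reticulum, stood at 12.6, 23.1 and 44.7 CPM against 1580.2, 1408 and 1601 in total RNA, 64.2-fold lower (adjusted p = 2.69e-76). BFR1, a polysome-associated RNA-binding protein, was 53.9-fold lower at 12.6, 30.8 and 35.7 CPM against 1259, 1274 and 1352. Both groups were wide apart for these 2 genes. CDC33, which encodes eIF4E, had 0 counts in the pulldowns and 111 in total RNA, so it was at least 10.9-fold lower, taking 3 counts over the whole group as the floor. SAE2, SEC65 and YOL029C also had 0 pulldown counts, against 74, 68 and 114, and were at least 7.27-fold, 6.68-fold and 11.2-fold lower. The Ty genes YMR045C and YHR214C-B had 0 as well (at least 15.3-fold and 13.8-fold lower), and their reads could belong to other copies of the element. TPM2, a tropomyosin, had 3 counts against 796, a ratio of 0.0128 (95% exact counting interval 0.00263 to 0.0375, counting error only), and TUB3, an alpha-tubulin, 3 against 520, a ratio of 0.0196 (0.00402 to 0.0575).

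Histone genes, made in S phase, were higher in 9 of 11 cases and lower in 1. HTA1, for histone H2A, stood at 955, 1146 and 1089.7 CPM in the pulldowns and at 29.5, 31.95 and 29.2 in total RNA, with no overlap, though its copy HTA2 is nearly identical. HHF1, for H4, stood at 5.29 and as high with no tag, at 5.34, with a near-identical copy in HHF2. HTB1, for H2B, stood at 4.58 against -0.15 with no tag, and HHO1, for the linker histone H1, was lower at -4.02 ± 0.37. The median of the list was 2.88, against 0.39 with no tag.

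General stress response genes, driven by Msn2 and Msn4, were higher in 24 of 33 cases and lower in 3, with a median of 2.23 against -0.10 with no tag. SPI1, a cell wall protein of stressed cells, stood at 559, 569 and 509 CPM against 31.2, 19.2 and 22.4, with a difference of 2.06 from its no tag ratio, and GPP2, a glycerol-phosphate phosphatase, at 4.45 ± 0.36. The lower members were TPS2 (-2.66), of trehalose synthesis, GAD1 (-1.33, not called without replicate 1), a glutamate decarboxylase, and GSY2 (-1.15), a glycogen synthase. Cell wall genes were higher in 22 of 37 cases and lower in 5 (median 1.64, no tag -0.35). YGP1, a secreted glycoprotein, stood at 1543, 1485 and 1670.2 CPM against 93.7, 91.6 and 103, while CHS2, the chitin synthase of the septum, was lower at -4.33 ± 0.31.

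Glycolysis and ethanol fermentation genes were higher in 17 of 22 cases and lower in 1, PFK1 (-1.11), for which the call ended without replicate 3 (-0.95). TPI1, triose phosphate isomerase, stood at 3528, 2923 and 2965 CPM against 239, 256 and 209.8. The list's median was 1.49, and it was 0.84 with no tag, so that 7 members were higher and 3 lower than that background. Of plasma membrane transporters, 17 of 37 were called higher in the Cbp80-PrA wild type. In tho2Δ 10 were higher (27.0%, near the 32.1% of all genes) and 2 lower, with a median of 0.55. By the test of the difference between both ratios, 2 were higher in tho2Δ (5.41%, against 3.35% of all genes) and 0 lower. The median difference was -0.22. BAP3, an amino acid permease, stood at 3335, 3262 and 3582 CPM against 444, 373 and 414. Among heat shock proteins and chaperones 7 of 33 were higher (21.2%, against 32.1% of all genes) and 11 lower (33.3%, near the 29.8% of all genes). HSP30, a membrane protein of the stress response, stood at 2262, 2331 and 2358 CPM against 206, 200.2 and 198, whereas HSC82, an Hsp90 with a near-identical copy, was lower at -3.37 and the ribosome-associated ZUO1 at -3.30.

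Of 25 genes known to be controlled by early termination, splicing or nuclear decay, 17 were higher and 2 lower (median 1.73, no tag -0.26). NRD1, whose product ends short transcripts and limits its own message by early termination, stood at 1859, 1746 and 2456 CPM in the pulldowns and at 111, 129.9 and 115 in total RNA. IMD2, an IMP dehydrogenase whose upstream start sites give short unstable transcripts, was higher by 4.06 ± 0.28, and RPS9A, a ribosomal protein gene whose splicing its product represses, by 4.02 ± 0.22, with a near-identical copy in RPS9B. The lower members included NPL3, an mRNA-binding export factor (-2.28 ± 0.22).

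**Figure D2:**
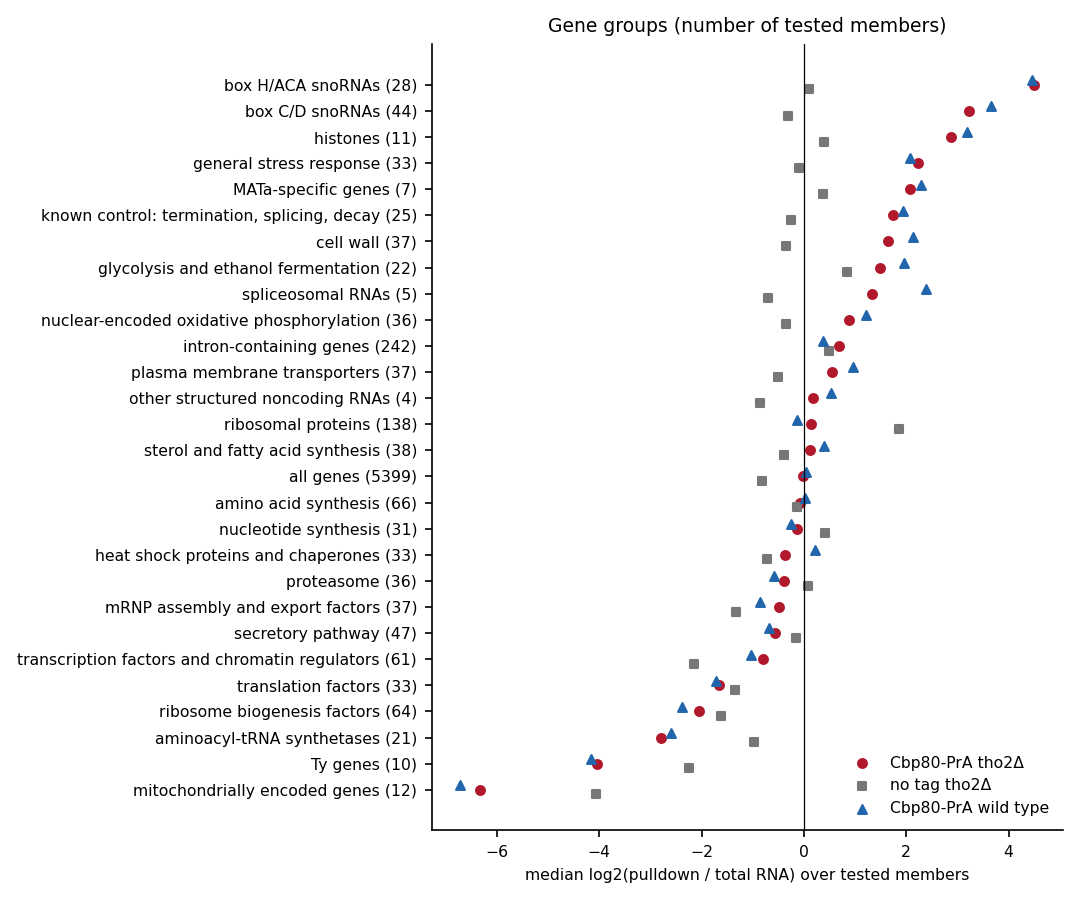
Median log2 ratio of pulldown to total RNA over the tested members of each gene group, for Cbp80-PrA tho2Δ (red circles), no tag tho2Δ (grey squares) and Cbp80-PrA wild type (blue triangles), with the number of tested members in brackets. Both Cbp80-PrA strains lie close together in most groups, from 4.51 for box H/ACA snoRNAs down to a fitted -6.33 for mitochondrially encoded genes in tho2Δ, 8 of which had a group at 0, while ribosomal proteins have the highest no tag median, 1.86.

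Aminoacyl-tRNA synthetases, which charge tRNAs, were lower in 16 of 21 cases, and their median was -2.79 against -0.98 with no tag. That list also held RRS1, a ribosome biogenesis factor and no synthetase, which was not called (-0.66). Without it 16 of 20 were lower, with a median of -2.82. The 1 higher member, FRS1 (2.34), was also high with no tag (3.38). GRS1, for glycine, stood at 261, 292 and 241 CPM against 3162, 3281 and 3255, and ILS1, for isoleucine, at -3.42 ± 0.23. Ribosome biogenesis factors were lower in 53 of 64 cases and higher in 3 (median -2.05, no tag -1.63). RRP5, needed for early cleavages of the ribosomal RNA precursor, stood at 54.7, 38.5 and 26.8 CPM against 1311, 1316 and 1455, 31.5-fold lower, and RRP12 and BMS1, of pre-ribosome maturation and export, at -5.32 and -4.70. The higher members were NOP10 (3.23), SNU13 (1.60), a protein that binds box C/D snoRNAs and the U4 RNA and that was higher with no tag as well (2.90), and IMP3 (1.07). The call of IMP3 ended without any 1 of the replicates (0.79 to 1.18), and NOP10, a small box H/ACA protein, was at 526, 377 and 53.6 CPM in the pulldowns and higher with no tag as well, at 4.01. Of 33 translation factors 21 were lower and 2 higher (median -1.66, no tag -1.36), SUP45, the release factor eRF1, at -4.30 and TIF4631, eIF4G, at -4.17, while TIF6, which acts in the assembly of the large ribosomal subunit, was the higher member with the largest ratio (4.13).

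Factors of mRNP assembly and export, the machinery to which the purified proteins belong, had a median of -0.49. Of 37 tested, 10 were higher (27.0%) and 14 lower (37.8%), against 32.1% and 29.8% of all genes. CDC31, the centrin of the TREX-2 export complex, stood at 5976, 6578 and 3644 CPM against 219, 213 and 198 in total RNA, and SUS1, of TREX-2 and SAGA, at 3.99 ± 0.53. SUB2, the helicase partner of THO, was lower at 79.9, 131 and 44.7 CPM against 1018, 1067 and 1087 (12.4-fold), and lower than with no tag by 2.99. MLP1, of the nuclear basket, was lower by 3.19 ± 0.26. YRA1 itself stood at 25.2, 61.5 and 26.8 CPM against 65.9, 57.5 and 61.9, overlapping groups with a ratio of -0.79 ± 0.41 (adjusted p = 0.0713). HPR1, a THO subunit, stood at -0.87 ± 0.29, and STO1, the gene of the tagged protein, at 0.70 ± 0.24. These 3 were not called, although HPR1 passed both thresholds without replicate 3 (-1.01) and under 3 other settings (to -1.06), and YRA1 without replicate 2 (-1.40, adjusted p = 0.0141 by edgeR). Against the no tag ratio, YRA1 was lower by 1.98 ± 0.61 and STO1 higher by 3.67 ± 0.65. In the no tag pulldowns YRA1 had 6, 0 and 11 counts and STO1 3, 0 and 0, so both differences are loosely bounded.

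Proteasome (12 of 36 lower, 4 higher, median -0.38), secretory pathway (17 of 47 lower, 7 higher, median -0.58) and transcription and chromatin genes (29 of 61 lower, 17 higher, median -0.80) had negative medians, with the shares of proteasome and secretory genes that were lower near the 29.8% of all genes. Of the 61 transcription and chromatin genes, 26 passed the filter through total RNA only. Against the no tag background 0 of the 61 were lower and 16 higher, a share near the 23.8% of all genes. Their median difference of 1.95 (1.51 with DESeq2) included 13 genes with 0 counts in the no tag pulldowns. Of the 47 secretory genes, 12 were lower and 6 higher (median -0.69). RSF2, a zinc-finger regulator that overlaps a gene on the opposite strand, had 955, 1039 and 1233 CPM in the pulldowns against 90.2, 95.9 and 84.3, and FHL1, a regulator of ribosomal protein genes, stood at -4.09 ± 0.33. Amino acid synthesis (19 of 66 higher, 22 lower, median -0.09), nucleotide synthesis (9 and 10 of 31, -0.14) and sterol and fatty acid synthesis (13 and 7 of 38, 0.12) had shares of higher and lower genes near those of all genes, apart from the low share of lower sterol and fatty acid genes (18.4%). The medians of the first and the last changed sign under other scalings. In the last, IFA38, a reductase of fatty acid elongation, stood at 3.81 ± 0.22 and TSC13, of the same elongation cycle, at -4.00 ± 0.34. In the second, the 2 CTP synthases differed, URA8 at 3.28 ± 0.21 and URA7 at -5.42 ± 0.34. Of 36 genes for subunits of the respiratory chain made in the cytoplasm, 16 were higher and 8 lower (median 0.87).

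Ribosomal protein genes behaved unlike the rest in the background. Their median ratio was 0.14 in the Cbp80-PrA tho2Δ pulldown, with 32 of 138 higher and 34 lower, but 1.86 with no tag, where 89 were higher and 13 lower. They took 5.49% to 10.6% of tested counts in the Cbp80-PrA tho2Δ pulldowns, 7.98% to 8.44% in total RNA and 31.4% to 32.4% in the no tag pulldowns. Measured against that background, the list's median was -1.80, 89 members being lower and 6 higher. The list was made by gene name and also held RPP1, a subunit of RNase P and no ribosomal protein. Without it the median ratio was 0.16 (1.89 with no tag), and 88 of 137 genes were lower than the background. The median of 0.14 was -0.01 with total counts as the scale. RPP2A, a stalk protein, stood at 46.3, 15.4 and 44.7 CPM against 1096, 1120.5 and 1180 (30.4-fold lower), while RPS29A stood at 9739, 9555 and 1839.9 CPM against 389, 405 and 401. The third pulldown of RPS29A was far below the others, and its copy RPS29B is nearly identical. Without replicate 3, 43 members were higher and 34 lower. Intron-containing genes other than ribosomal proteins were higher in 70 of 153 cases and lower in 24 (median 0.79, no tag 0.04), among them UBC4, a ubiquitin-conjugating enzyme, with 1405, 1246 and 1393 CPM against 81.5, 98.0 and 70.5. Its ratio of 4.02 compared with 2.91 with no tag.

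Mitochondrially encoded genes are transcribed inside the organelle. Of the 12 tested, 9 passed the filter through total RNA only, so no count of them as lower is given. They took 0.0182% to 0.0395% of tested counts in the pulldowns and 1.40% to 1.72% in total RNA, and 0.43% to 0.496% in the no tag pulldowns. For 8 of the 12 a group was at 0, and with those at their bound the median was -2.76. Genes of tRNAs, which RNA polymerase III transcribes, were a set chosen after values were seen. They took 1.69% to 2.78% of tested counts in the pulldowns, 0.241% to 0.290% in total RNA and 0.223% to 0.282% in the no tag pulldowns. Of the 120 tested, 17 passed the filter through the pulldown only, so no count of them is given. Of 10 tested Ty genes 8 passed the filter through total RNA only, so no count of them is given either. Their median was -2.43 with genes at 0 at their bound. YLR256W-A was higher at 1148, 1108 and 1483 CPM against 29.5, 29.8 and 36.1, though its sequence has near-identical copies.

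Coding length and level both went with the ratio, across 5163 nuclear coding genes. The median ratio was 0.65 for coding regions under 1000 nt, -0.10 from 1000 to 2000 nt, -1.05 from 2000 to 4000 nt and -1.88 from 4000 nt, where 130 of 184 genes were lower and 10 higher. The no tag pulldown showed a decline too, from 0.04 to -0.92, -1.78 and -2.50. The difference between both ratios had medians of 0.43, 0.82, 0.76 and 0.67 in the same order. In 4 equal classes of total RNA level in the no tag tho2Δ strain, whose libraries do not enter the ratio, the median was 1.79 in the lowest, then 0.12, -0.62 and -1.44 in the highest. Of the lowest class 254 of 1290 genes passed the filter through the pulldown only, and of coding regions under 1000 nt 178 of 1956. Of the 184 genes of 4000 nt and over, 82 passed through total RNA only. Over genes that passed in both fractions, a restriction added after values were seen, the medians were 2.14, 1.20, 0.05 and -1.15 by level and 0.60, 0.22, -0.64 and -1.42 by length. With no tag the medians ran from 0.07 to -1.49, but the level enters that ratio. Of long genes that the study follows, IRA2, a regulator of Ras, stood at -1.78 ± 0.29, TAO3, of cell polarity, at -2.04 ± 0.43, and REA1 (MDN1), the ATPase of ribosome assembly, well below the median of its length class at -3.77 ± 0.28.

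**Figure D3:**
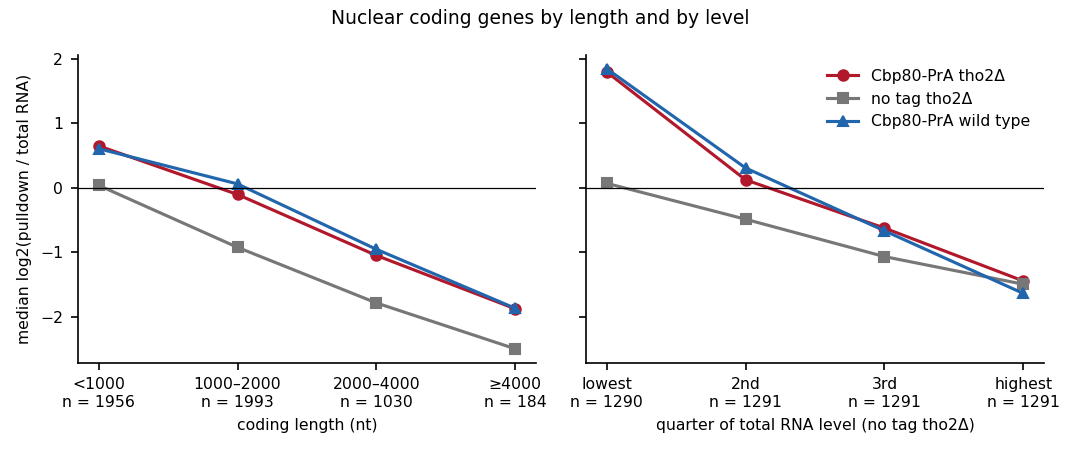
Median log2 ratio of pulldown to total RNA by coding length and by class of total RNA level, for nuclear coding genes (n under each class) in the 3 strains. Long genes have low ratios in every strain, with the no tag points (grey squares) lowest in each length class, from 0.04 to -2.50, and in the highest class of level the 3 strains lie between -1.44 and -1.64.

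The ratio was then compared, gene by gene, with that of the no tag tho2Δ strain as the background with the same tho2 deletion. Total RNA of chromosome XVI and, by less, of chromosome II differed between both strains. The log2 ratio was higher than the background for 1287 genes (23.8%) and lower for 432 (8.00%), with a median difference of 0.76. The largest differences were of genes with 0 counts in the no tag pulldowns, as were 671 of all tested genes, so these are bounds set by the shallow background. YBR182C-A had 219 pulldown counts against 0 and exceeded the background by at least 4.45 on the log2 scale, COX26, a protein of respiratory supercomplexes, by at least 4.27, RMD6 by at least 4.10, ERV15 by at least 3.98, YGR035C by at least 3.95 and YCR085W by at least 3.82. Among those with more background counts, CDC31 differed by 3.71 and HTA1 by 3.02. The lowest were YOL029C, which depended on 0 pulldown counts against 2 with no tag, and genes of translation elongation and of ribosomal proteins, EFT1 (-4.73 ± 0.68, eEF2), RPL2B (-4.41) and RPL9A (-3.75), each with a near-identical copy. TEF1, for eEF1A, stood at 1186, 1562 and 107 CPM in the pulldowns. Its difference of -3.77 lost its call without any 1 of 5 pairs of libraries (edgeR adjusted p = 0.0515 to 0.102). The box C/D and box H/ACA lists had median differences of 3.78 and 4.12, with 37 of 44 and 24 of 28 members higher and 0 lower in both.

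The comparison with the Cbp80-PrA wild type asked where the pulldown ratio differed between tho2Δ and wild type cells. Total RNA of chromosome XVI and, by less, of chromosome II differed between both strains too, so their part cannot be told apart from that of the deletion. Few genes differed. The ratio was higher in tho2Δ for 181 genes (3.35%) and lower for 57 (1.06%), with a median difference of -0.03. With total counts as the scale, which moved that median to -0.25, it was 115 higher and 143 lower, and with DESeq2 105 and 19, so the balance of directions rested on the scale. Without Cbp80-PrA tho2Δ replicate 1 it was 117 and 23. The lower count was also reduced without tho2Δ replicate 2 (31) and without wild type replicates 2 (37) and 3 (36). Median differences of the gene groups were 0.08 for box C/D snoRNAs, 0.09 for box H/ACA snoRNAs, 0.10 for ribosome biogenesis factors, 0.04 for histones and -0.39 for glycolysis, and ran from -1.53 for Ty genes and -0.83 for spliceosomal RNAs to 0.78 for the purine-rich coding genes described next. SNR19, the U1 RNA, stood at 2321, 2831 and 1831 CPM in tho2Δ pulldowns against 3028, 3861 and 4621 in wild type. Its ratio was lower by 1.23 ± 0.27 on the log2 scale (adjusted p = 0.000446). SNR84 was lower by 1.24 ± 0.31 (adjusted p = 0.00254).

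Of the 177 coding genes that gained in tho2Δ, 100 (56.5%) held at least 60% purines (A + G), against 3.85% of those not called. The 177 ranged from 40.9% to 73.6%. The 6 with the largest difference were MTW1, PEX19, NOP16, LEO1, IES2 and KRI1, which act in the kinetochore, in peroxisome biogenesis, in large ribosomal subunit assembly, in the Paf1 elongation complex, in the INO80 remodeller and in small ribosomal subunit assembly. Their coding sequences held 60.2% to 66.2% purines (A + G), whereas those of the 6 with the lowest difference, COS7, MSD1, GCN3, KRE33, TBF1 and YME1, held 49.3% to 55.0%. Purine content was examined after these differences were seen, so what follows is a description without a test. To show the composition, the 90 bases of the coding strand with the most purines are given for 4 gaining and 2 losing genes, from RefSeq R64, 5′ to 3′, with purines in capitals: KRI1 at chrXIV:54588-54677 (-) with 81 purines, LEO1 at chrXV:553211-553300 (-) with 76, IES2 at chrXIV:244819-244908 (+) with 75, NOP16 at chrV:157308-157397 (+) with 66, KRE33 at chrXIV:375496-375585 (+) with 67 and GCN3 at chrXI:489491-489580 (-) with 58.
KRI1: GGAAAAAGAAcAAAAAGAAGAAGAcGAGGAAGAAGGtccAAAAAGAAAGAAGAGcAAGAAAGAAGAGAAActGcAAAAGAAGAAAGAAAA
LEO1: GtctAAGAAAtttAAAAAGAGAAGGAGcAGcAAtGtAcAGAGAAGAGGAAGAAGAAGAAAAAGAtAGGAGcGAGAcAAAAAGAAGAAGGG
IES2: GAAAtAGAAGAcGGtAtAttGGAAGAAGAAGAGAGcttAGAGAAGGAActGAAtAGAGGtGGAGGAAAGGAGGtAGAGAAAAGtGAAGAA
NOP16: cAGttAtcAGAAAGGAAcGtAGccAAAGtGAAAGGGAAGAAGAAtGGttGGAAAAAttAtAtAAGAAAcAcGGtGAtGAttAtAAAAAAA
KRE33: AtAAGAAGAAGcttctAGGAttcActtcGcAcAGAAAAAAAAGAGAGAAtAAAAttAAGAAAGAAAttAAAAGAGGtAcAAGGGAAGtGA
GCN3: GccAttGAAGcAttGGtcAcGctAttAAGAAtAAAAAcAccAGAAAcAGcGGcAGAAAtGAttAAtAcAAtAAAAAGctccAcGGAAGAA

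Of nuclear coding genes, 0.349% held a stretch with as many purines as that of KRI1, 1.32% as that of LEO1 and 21.0% as that of NOP16, and the richest stretch did not separate NOP16, MTW1 and PEX19, with 66 purines each, from the losing genes COS7 (67), KRE33 (67) and TBF1 (66). MSD1 had 62 and YME1 60. A stretch of 90 bases with at least 75 purines was present in 28 of the 177 coding genes that were higher (15.8%), in 0 of the 55 that were lower and in 62 of 4926 that were not called (1.26%).

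NOP16 shows the change in the libraries. It stood at 6799.8, 7924 and 3564 CPM in the tho2Δ pulldowns and at 1439.7, 1387 and 1415 in their total RNA, and at 380.5, 462 and 364 CPM in the wild type pulldowns against 743.5, 734.5 and 669 in total RNA. Thus it was above total RNA in every pair of the deletion and below it in every pair of the wild type, a difference of ratios of 2.87 ± 0.28 (adjusted p = 1.11e-20). LEO1 stood at 1737, 1754 and 2117 CPM in tho2Δ pulldowns and at 238, 282 and 182 in wild type, while total RNA lay closer, at 671 to 817 and 596 to 631. KRI1 stood at 2637, 2177 and 2509.8 CPM against 412, 426 and 242, with total RNA of 1255 to 1553 and 1265 to 1431. For KRI1 the total RNA of both strains overlapped and the pulldowns were separate. MTW1 had the largest difference, 3.37 ± 0.40. Each of the 6 kept its call under every alternative run, the lowest value being 2.44, for IES2. The lower genes were less firm. COS7 had 0 counts in wild type total RNA and lost its call without any 1 of 4 pairs of libraries. GCN3 (-2.37 ± 0.70) also lost its call without any 1 of 4 pairs, and MSD1 (-2.92) and TBF1 (-2.29) without either of 2. YME1 (-2.22) lost its call without wild type replicate 2 (-1.70, edgeR adjusted p = 0.0739). KRE33 (-2.34 ± 0.53) kept its call. MSD1, TBF1 and YME1 lie on chromosome XVI, whose total RNA was raised in this strain; its part in their lower ratio was not tested.

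Across all coding genes the share of genes higher in tho2Δ was 0.949% to 2.24% in the 5 classes under 58% purines. It was 17 of 302 (5.63%) from 58% to 60%, 41 of 165 (24.8%) from 60% to 62%, 26 of 71 (36.6%) from 62% to 64% and 33 of 54 (61.1%) at 64% and over. Medians of the difference in the last 4 classes were 0.23, 0.57, 0.91 and 1.46. In the wild type the ratio itself declined with purine content, from a median of 1.40 under 50% purines to -1.30 between 62% and 64%, and stood at -0.93 at 64% and over, all 3 pairs being higher there than in the class before. In tho2Δ it declined to -0.77 between 56% and 58% and then turned back to 0.53 at 64% and over. Pairs 1 and 2 turned from 58% and pair 3 from 62%. With no tag it ran from -0.16 to -1.68 and stood at -0.88 in the last class. Of 290 tested genes with at least 60% purines 100 were higher than in wild type and 0 lower, 56.5% of the 177 higher coding genes, against 3.85% of those not called. The count was 72 to 101 under the alternatives, and 3 were lower with total counts as the scale and 1 without the replicate block.

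**Figure D4:**
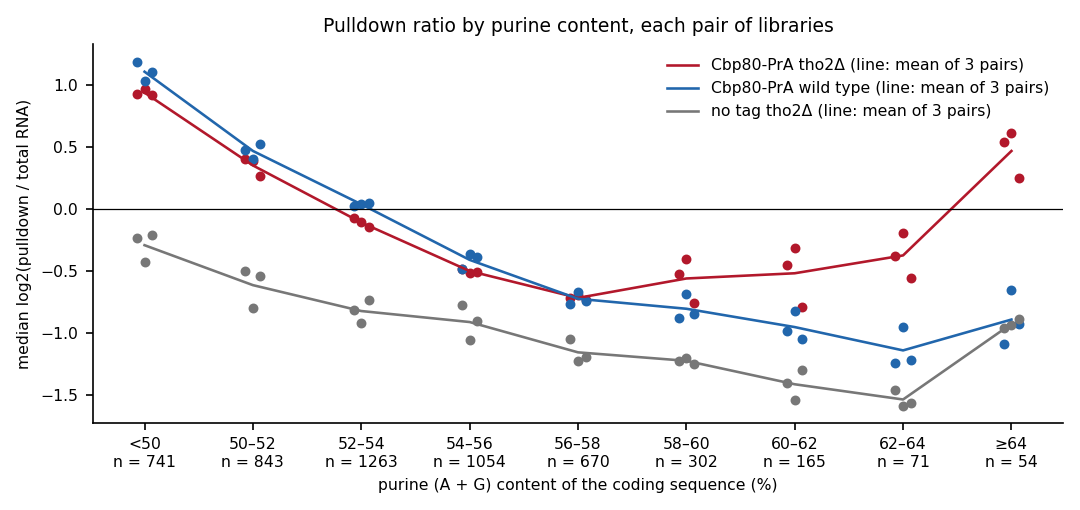
Median log2 ratio of pulldown to total RNA by purine content of the coding sequence, for each of the 3 pairs of libraries (points) and their mean (lines), with the number of genes under each class. In Cbp80-PrA tho2Δ (red) the 3 pairs rise in the last classes and end between 0.26 and 0.61 at 64% and over, where the wild type (blue) and no tag tho2Δ (grey) pairs all stay below -0.6.

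Within classes of level and length the counts were uneven. In the highest class of total RNA level 76 of 155 purine-rich genes were higher, against 39 of 1136 others, and in the next class 19 of 75 against 23 of 1216. In the lower classes few genes were called, 4 of 24 against 9 of 1267 and, in the lowest, 1 of 36 against 6 of 1254. In coding lengths of 1000 to 2000 nt it was 34 of 70 against 21 of 1923, and under 1000 nt 56 of 198 against 27 of 1758. Ribosome biogenesis factors were 5 of the 290, and without them 96 of 285 were higher. Off chromosome XVI it was 94 of 277, and among genes with no overlapping neighbour 99 of 284. By base, the share higher rose with A content, to 49 of 115 genes (42.6%) at 40% A and over. Levels relative to each gene's own mean over the 18 libraries showed where the change lay. For the purine-rich genes the median was 0.33, 0.30 and 0.04 in the tho2Δ pulldowns and -0.70, -0.50 and -0.66 in those of the wild type, with replicate 3 of tho2Δ lowest. In total RNA it was 0.53, 0.51 and 0.60 in Cbp80-PrA tho2Δ against 0.46, 0.36 and 0.38 in wild type, higher as well, by less. Total RNA of the no tag tho2Δ strain stood at 0.39, 0.33 and 0.43, near the wild type. The no tag tho2Δ pulldowns stood at -0.84, -1.06 and -0.79.

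**Figure D5:**
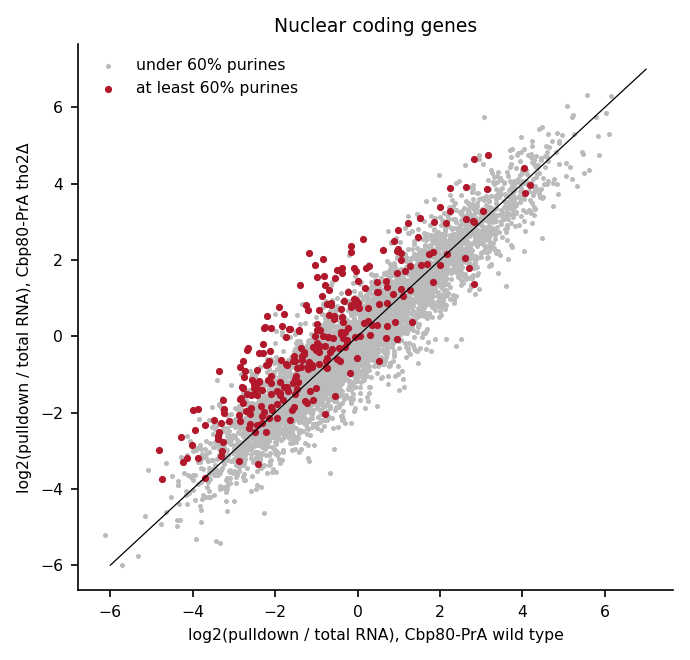
Log2 ratio of pulldown to total RNA in Cbp80-PrA tho2Δ against that in the Cbp80-PrA wild type for 4980 nuclear coding genes with more than 3 counts in each group, with the line of equal ratios. The 279 genes with at least 60% purines (red) lie mostly above the line, with a median difference of 0.78 over the 290 that were tested, and other genes (grey) lie along it.

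Other genes named from the lists also differed from wild type. CDC31, itself with 61.3% purines, was higher by 1.81 ± 0.30 (adjusted p = 1.74e-07). Its pulldowns of 5976, 6578 and 3644 CPM compared with 797, 890 and 757 in wild type, and its total RNA of 219, 213 and 198 CPM with 88.3, 157 and 102. IMD2 was higher by 1.60 ± 0.40 and STO1 by 1.21 ± 0.32 (adjusted p = 0.00658). STO1 had 129 to 143 CPM in total RNA of this strain and 177 to 263 in the wild type, so its ratio rested in part on the lower total. URA7 was lower by 2.08 ± 0.48, GAD1 by 1.61 ± 0.52, CHS2 by 1.34 ± 0.44 and GUA1, a GMP synthase, by 1.23 ± 0.33.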

How the data were processed

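The count values were deposited by the authors as deduplicated reads for each gene. Methods and labels state that UMIs were handled with UMI-tools 1.0.1, adapters and poly(A) were trimmed with bbduk, ribosomal RNA reads were removed with bbsplit, and reads were aligned with STAR 2.7.10a to R64 and counted with HTSeq 2.0.2 (intersection-nonempty). The strand setting is not given in the sources used here. Normalised values, counts divided by DESeq2 1.38.2 size factors per the labels and as deposited (a signal unit), were not used. The 5 summary lines were left out of library sizes. Reads outside genes were 44.1% to 57.8% of all reads of the 6 libraries. Of 6461 identifiers 6458 matched the annotation, and 1 list symbol (FEN1) was not matched.

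The 18 libraries of 3 strains were fitted in 1 model with edgeR 4.0.16 in R 4.3.3 (TMM, filterByExpr over 6 groups, robust quasi-likelihood F test, Benjamini-Hochberg adjustment), with each pulldown and its total RNA as a block (9 pairs) and 1 ratio per strain. The pairing comes from the design, a shared lysate. Deviations of same-numbered libraries of the Cbp80-PrA tho2Δ strain correlated at 0.026 to 0.084. Calls required adjusted p below 0.05 together with a log2 value beyond 1. The biological coefficient of variation was 0.157. The SE of a log2 value is its size divided by the square root of its F statistic. P-values and SE rest on the spread between replicates within the 18 libraries, moderated across genes. Total RNA and pulldown libraries held the depths given with the results, and counting intervals (95%, exact) and the floor of 3 counts over a group cover counting error only. Chi-square per degree of freedom between replicates, with no test, was 1.09 to 5.13. The lowest was that of no tag tho2Δ pulldown replicates 1 and 2. The procedure was run on simulated data in which few genes changed, as many up as down. That does not test the scaling where many genes differ, as here.

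Genes were named by rule: the 10 highest and 10 lowest called coding genes of the nucleus (20 CPM or more on average over the 6 libraries, no overlap), up to 3 called members per list and direction, the 6 highest and lowest of each difference, all spliceosomal and other structured RNAs, and THO2, HPR1, STO1, YRA1, IRA2, TAO3 and REA1 always. SNR30, SNR49, SNR36, SNR46, RRS1 and RPP1 were named after their values were seen. Near-identical copies were found with BLAST 2.17.0 (90% identity over 100 nt). Members and lists were chosen with earlier results of these data known. Alternatives were other scalings (median-ratio factors, total counts, TMM over coding genes), no filter, DESeq2 1.42.0, no replicate block, only the 6 or all 30 libraries, a test against the threshold (glmTreat), the AVITI-only pair of replicate 1 and each replicate left out. Purine content, tRNA genes, medians over genes that passed the filter in both fractions, and 2 lists without RPP1 or RRS1 were added after values were seen.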

Additional observations from a re-analysis of the deposited data

Results flagged for a closer look

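The values listed here differed between the Cbp80-PrA tho2Δ strain and the Cbp80-PrA wild type by the test of the difference between both ratios. In all, 181 genes were higher and 57 lower. The named genes with a higher ratio in tho2Δ were MTW1 (3.37 on the log2 scale), PEX19 (2.88), NOP16 (2.87), LEO1 (2.74), IES2 (2.72), KRI1 (2.68), CDC31 (1.81), IMD2 (1.60) and STO1 (1.21). Those with a lower ratio were GUA1 (-1.23), SNR19 (-1.23), SNR84 (-1.24), CHS2 (-1.34), GAD1 (-1.61), URA7 (-2.08), YME1 (-2.22), TBF1 (-2.29), KRE33 (-2.34), GCN3 (-2.37), MSD1 (-2.92) and COS7 (-4.38). The value of COS7 depends on 0 counts in wild type total RNA and is no bound.

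Reads outside all genes, which no comparison used, took 55.5% ± 1.99 (SD, n = 3) of the Cbp80-PrA tho2Δ pulldowns. They took 50.2% ± 0.70 of the no tag tho2Δ pulldowns, 48.0% ± 2.51 of the Cbp80-PrA wild type pulldowns and 45.9% ± 1.85 of the paired total RNA, and every pulldown of the first group lay above every library of the others.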

How the results depend on the processing

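Counts of genes higher and lower in the pulldown stayed within 1.5 times of 1735 and 1610 under all alternatives run (1397 to 1854 and 1154 to 1798), as did those against no tag (941 to 1309 and 313 to 561), and no called gene turned direction in these alternatives. Leaving out each replicate gave 1620 to 1740 higher and 1505 to 1652 lower against total RNA, and 941 to 1218 and 313 to 437 against no tag. Against the Cbp80-PrA wild type it gave 117 to 184 higher and 23 to 50 lower, with 117 and 23 without Cbp80-PrA tho2Δ replicate 1. Total counts gave 115 and 143 there and DESeq2 105 and 19; the cause was not tested. Without the replicate block the pairing made little difference, with 1755 higher and 1614 lower, 1309 and 430 against no tag, and 186 and 80 against wild type. The call of RPL2B against total RNA ended without the block (adjusted p = 0.0759), as did its call against no tag (adjusted p = 0.057). Over all named genes and alternatives, 62 values lost and 6 gained a call, and 2504 kept their side of the threshold. Depth limited what could be said of genes at 0 in the no tag pulldowns.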
